A study of Mus musculus with 7 samples.

Results

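The fatty acid desaturases and elongases of the newborn mouse heart were examined as a set of 10 genes out of the 13788 genes of the deposited expression table. The set was taken by gene symbol and holds 3 stearoyl-CoA desaturases (Scd1, Scd2, Scd4), 3 fatty acid desaturases (Fads1, Fads2, Fads3) and 4 elongases (Elovl1, Elovl5, Elovl6, Elovl7), and all 10 were listed once. RNA came from whole hearts of C57BL/6 mice at postnatal day 0. The WT group held 3 wild-type hearts (replicates 1, 2 and 28), and the edKO group 4 hearts (replicates 5, 6, 15 and 33) labelled as lacking the retinoid X receptors α and β, encoded by Rxra and Rxrb, in cardiomyocytes. The labels name neither the Cre driver, nor the deleted exons, nor the sex or litter of the mice, and whole hearts hold other cells in which the knockout is not stated. The title of the study concerns γ-linolenic acid in maternal milk. The comparison asks which genes that make or change fatty acids differ between these 2 labelled groups at birth.

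Stearoyl-CoA desaturases place the first double bond into saturated fatty acids and so make the monounsaturated oleate and palmitoleate. Polyunsaturated fatty acids start from dietary linoleic and α-linolenic acid: Fads2 performs the first desaturation, which yields γ-linolenic acid from linoleic acid, Elovl5 lengthens the product, and Fads1 performs the next desaturation towards arachidonic and eicosapentaenoic acid. Retinoid X receptors pair with the PPAR and LXR receptors, which bind fatty acids and oxysterols, and desaturase genes are known in liver as targets of these pairs and of the SREBP factors.

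The table gives normalised reads per 1000000, in which the authors scaled each library to a common size. Recovered totals lay between 12108464 and 24912403 reads per library, and a count of 3 reads was worth 0.122 to 0.262 normalised reads per 1000000. Each member was read by at least 13 reads in every library. The targeted genes were checked first. Rxra stood at 61.6 ± 1.99 (SD) in WT and 66.1 ± 6.74 in edKO, with overlapping groups (adjusted p = 0.632 by limma and p = 0.314 by exact permutation). Rxrb stood at 48.2 ± 3.18 and 38.9 ± 4.00 (adjusted p = 0.139 by limma and p = 0.0571 by exact permutation). Its groups did not overlap, with 45.5 in the lowest WT and 44.0 in the highest edKO heart. Since the deleted exons are not named, such whole-gene totals do not test the genotype labels. The 6 cardiomyocyte markers summed to 35498 to 39374 in WT and 34684 to 38232 in edKO. None of the 7 fat markers was listed in the table. Of 27 other marker genes listed for endothelial, fibroblast, smooth muscle, epicardial, macrophage, erythroid and liver cells, none was called. The 3 listed Schwann cell markers, of a cell type known for Scd2, summed to 14.8 to 24.6 in WT and 11.9 to 20.2 in edKO. In bulk hearts, fewer cells of a type and less RNA per cell cannot be told apart.

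Over all genes, 580 of 13788 (4.21%) passed limma at an adjusted p under 0.05, 293 lower (2.13%) and 287 higher (2.08%) in edKO. Of the 10 desaturase and elongase genes, 3 passed as lower (Scd4, Scd2 and Fads1), 0 passed as higher, and 7 missed the threshold. Their groups did not overlap for 4 genes, all lower in edKO, beside 17.4% of all genes (9.04% lower and 8.41% higher). At an unadjusted limma p under 0.05 stood 5 members, with Fads3 on the higher side, beside 2649 of the 13788 genes, of which 1378 were higher. The median log2 difference was -0.20 over the 10 members and 0.00 over all genes; by family it was -0.99 for Scd, -0.58 for Fads and 0.03 for Elovl.

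**Figure D1:**
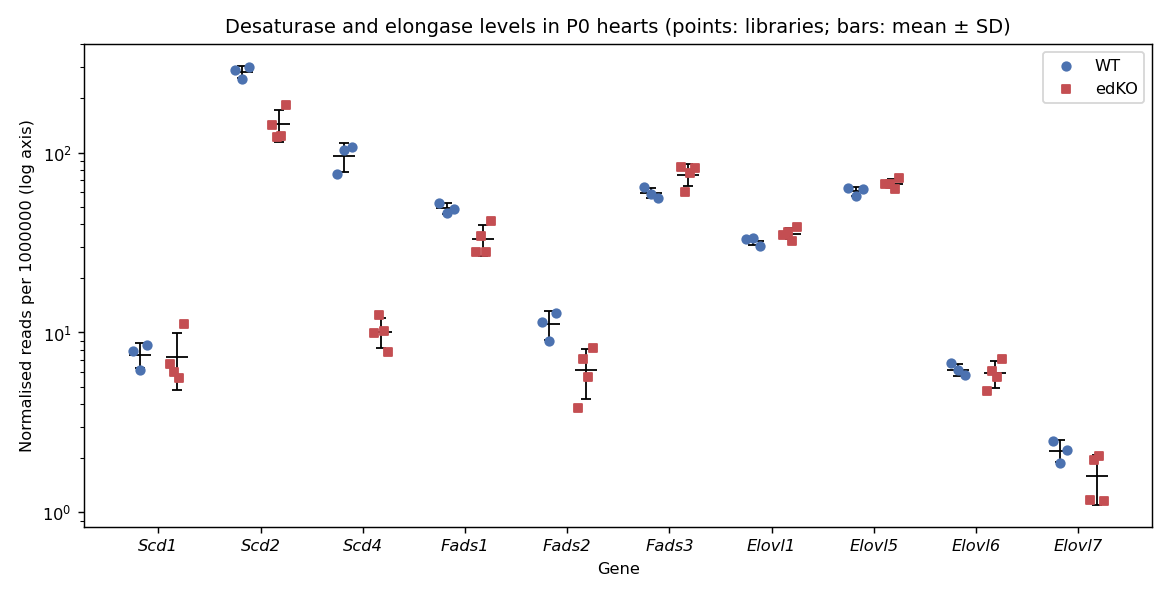
Level of each desaturase and elongase gene in every library, as normalised reads per 1000000 on a log axis; blue circles are 3 WT hearts, red squares 4 edKO hearts, and black bars the mean ± SD. Scd4 fell from 95.4 to 10.1 and Scd2 from 282 to 143, while Elovl1, Elovl5 and Elovl6 have overlapping groups.

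The stearoyl-CoA desaturase genes lie together on chromosome 19 of GRCm38, in the order Scd3, Scd2, Scd4 and Scd1, within 204.6 kb (44203269 to 44407879). Scd3 is not listed in the table and was not analysed here. Scd2 (44293674 to 44306864) and Scd4 (44333092 to 44346743) are on the plus strand with 26.2 kb between them, and Scd1 (44394455 to 44407879) is on the minus strand. The 3 listed paralogs are alike in sequence: in the coding part Scd1 and Scd2 are 89.6% identical, Scd1 and Scd4 84.3%, and Scd2 and Scd4 82.6%. The stretch below is shown because it holds the longest run that Scd4 and Scd2 share, 98 bases, and because reads of 61 nt from inside such a run cannot be assigned to a paralog. It encodes a histidine-rich motif of the active site, it is 158 coding bases long in each gene, and capitals mark the 7 positions at which the 3 genes differ (GENCODE M21, GRCm38, 5′ to 3′ on the coding strand).
Scd4, coding bases 388 to 545: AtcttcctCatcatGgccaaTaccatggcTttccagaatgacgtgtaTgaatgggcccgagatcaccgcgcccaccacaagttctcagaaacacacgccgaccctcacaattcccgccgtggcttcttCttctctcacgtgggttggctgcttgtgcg
Scd2, coding bases 403 to 560: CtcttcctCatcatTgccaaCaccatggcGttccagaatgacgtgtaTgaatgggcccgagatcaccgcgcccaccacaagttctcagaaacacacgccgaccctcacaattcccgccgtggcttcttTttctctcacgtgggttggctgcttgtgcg
Scd1, coding bases 394 to 551: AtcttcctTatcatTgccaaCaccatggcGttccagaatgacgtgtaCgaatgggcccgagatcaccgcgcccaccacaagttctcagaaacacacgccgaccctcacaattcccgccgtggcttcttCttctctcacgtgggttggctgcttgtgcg
Over whole transcripts such runs are a small share. Of the 61-nt windows of Scd4, 2.83% also occur in another gene, against 2.62% for Scd2 and 3.62% for Scd1. The longest runs that Scd1 shares are 116 bases with Scd4 and 147 bases with Scd2. Scd1 had a mean of 7.53 in WT beside 282 for Scd2, so a small part of the Scd2 reads could weigh on the Scd1 value. Such an effect was not tested.

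Scd4 (ENSMUSG00000050195), the stearoyl-CoA desaturase known in mice for its expression in heart, had the largest difference of the 10 genes. Its normalised reads per 1000000 were 75.6, 104 and 107 in WT replicates 1, 2 and 28, and 9.99, 12.6, 10.1 and 7.76 in edKO replicates 5, 6, 15 and 33. The lowest WT heart stood 6.01-fold above the highest edKO heart. The mean fell 9.43-fold, from 95.4 ± 17.2 to 10.1 ± 1.97, with a log2 difference of -3.12 (SE 0.16, 95% interval -3.48 to -2.75; adjusted p = 1.41e-06 by limma). The exact permutation test gave p = 0.0286, the smallest value possible with 35 assignments of hearts to groups. Among all 13788 genes only 5 had a lower log2 difference. The residual edKO level came from 114 or more reads per library, so it was measured above the floor of 3 reads.

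Scd2 (ENSMUSG00000025203), the paralog known for its expression in brain and in the tissues of newborn mice, had the highest level of the set in both groups. It stood at 288, 258 and 299 in WT replicates 1, 2 and 28, and at 143, 121, 124 and 184 in edKO replicates 5, 6, 15 and 33. No edKO heart reached the WT hearts, and edKO replicate 33 was nearest to them. Scd2 fell 1.97-fold, from 282 ± 21.3 to 143 ± 29.1 (log2 difference -0.99, SE 0.14, 95% interval -1.29 to -0.69; adjusted p = 0.00234 by limma and p = 0.0286 by exact permutation). Both the Scd4 and the Scd2 call were kept whichever library was left out, with adjusted p up to 5.82e-05 and up to 0.0224.

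Scd1 (ENSMUSG00000037071), the main stearoyl-CoA desaturase of liver and fat, was a minor transcript and did not pass the test. Its values were 7.90, 6.22 and 8.47 in WT replicates 1, 2 and 28, and 6.67, 6.00, 5.60 and 11.1 in edKO replicates 5, 6, 15 and 33. The groups overlapped, since edKO replicate 33 was above every WT heart and replicates 6 and 15 below every WT heart. The means were 7.53 ± 1.17 and 7.35 ± 2.56, with a log2 difference of -0.07 and a 95% interval from -0.54 to 0.41 (adjusted p = 0.897 by limma and p = 0.857 by exact permutation). A fall as large as that of Scd2 lies outside this interval, although the difference between the paralogs was not tested as such. The sign of the Scd1 difference turned positive without WT replicate 28, edKO replicate 6 or edKO replicate 15 (0.01, 0.00 and 0.03 on the log2 scale).

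The make-up of the family changed with these differences. Summed over the 3 genes, Scd values were 371, 368 and 414 in WT replicates 1, 2 and 28, and 160, 140, 140 and 203 in edKO replicates 5, 6, 15 and 33, so the sum was 2.39-fold lower in edKO on average. Scd4 supplied 20.3%, 28.2% and 25.8% of the sum in the 3 WT hearts, and 6.26%, 8.98%, 7.24% and 3.81% in the edKO hearts. Scd2 supplied 73.3 ± 3.83% of it in WT and 88.9 ± 1.68% in edKO, and Scd1 1.95 ± 0.232% and 4.48 ± 0.673%. The groups did not overlap for any of the 3 shares. The shares of a heart add up to its whole Scd sum, so they are not independent of each other. The higher edKO shares of Scd2 and Scd1 were not higher levels. The WT and edKO means were 282 and 143 for Scd2, and 7.53 and 7.35 for Scd1. These sums and shares run over chosen genes and carry no test.

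**Figure D2:**
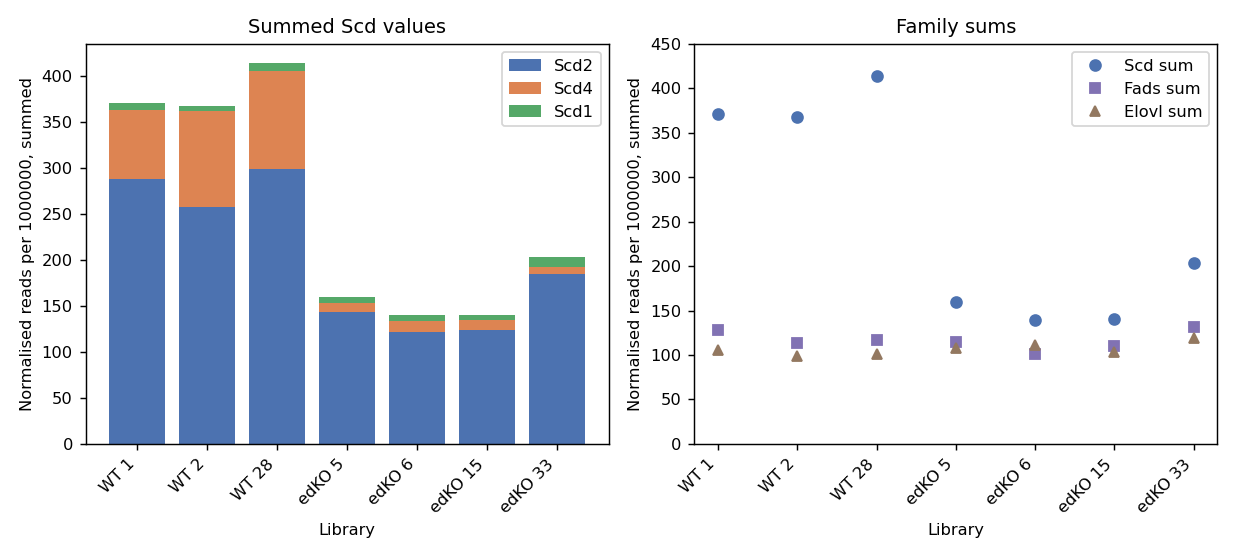
Left, summed normalised reads per 1000000 of Scd2, Scd4 and Scd1 in each library, as stacked bars; right, the sums over the Scd, Fads and Elovl genes in each library. The Scd sum lies between 368 and 414 in WT and between 140 and 203 in edKO, while the Fads and Elovl sums of the groups overlap.

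The polyunsaturated side is led by the Fads genes, which form a second cluster on chromosome 19 within 155.3 kb (10041569 to 10196877). Fads3 (10041569 to 10060110, plus strand) and Fads2 (10062765 to 10101746, minus strand) end towards each other with 2.65 kb between their ends, and Fads1 (10182888 to 10196877, plus strand) starts 81.1 kb beyond Fads2. None of the 61-nt windows of Fads1, Fads2 or Fads3 occurs in another gene. The promoters of Fads2 and Fads3 are shown because these neighbours had differences of opposite sign, and that of Scd4 because it fell most. RefSeq promoters (GRCm38.p6, 250 bases before to 50 after the start) were available for 7 of the 10 members, and Scd1, Scd2 and Fads1 are only named. Capitals mark CCAAT or AGGTCA on either strand.
Scd4, chr19:44333076-44333375, plus strand: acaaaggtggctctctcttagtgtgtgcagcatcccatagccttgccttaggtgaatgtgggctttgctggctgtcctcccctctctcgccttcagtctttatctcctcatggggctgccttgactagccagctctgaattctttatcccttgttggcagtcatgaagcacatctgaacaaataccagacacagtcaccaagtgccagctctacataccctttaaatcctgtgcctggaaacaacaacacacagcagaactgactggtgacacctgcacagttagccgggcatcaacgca
Fads2, chr19:10101454-10101753, minus strand: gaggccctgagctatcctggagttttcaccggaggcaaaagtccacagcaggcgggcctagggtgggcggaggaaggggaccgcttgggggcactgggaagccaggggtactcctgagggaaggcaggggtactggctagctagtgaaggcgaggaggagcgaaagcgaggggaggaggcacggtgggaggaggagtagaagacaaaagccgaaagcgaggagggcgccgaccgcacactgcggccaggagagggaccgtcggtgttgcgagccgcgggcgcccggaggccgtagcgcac
Fads3, chr19:10041298-10041597, plus strand: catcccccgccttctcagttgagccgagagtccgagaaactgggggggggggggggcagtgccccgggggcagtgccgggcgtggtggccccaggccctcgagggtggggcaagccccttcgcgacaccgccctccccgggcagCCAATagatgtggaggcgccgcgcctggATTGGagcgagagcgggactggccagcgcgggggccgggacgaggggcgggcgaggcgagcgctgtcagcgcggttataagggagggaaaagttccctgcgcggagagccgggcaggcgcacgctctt
Fads3 holds CCAAT once on each strand, beside 37.4% of 32851 RefSeq promoters that hold it at least once, and the windows of Scd4 and Fads2 hold none. Neither AGGTCA, the half-site of nuclear receptors (16.3% of promoters), nor its repeats with 1 base (AGGTCANAGGTCA, 0.0396%) or 4 bases between (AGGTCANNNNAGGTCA, 0.0152%), nor the sterol regulatory element TCACNCCAC (1.24%) occurs in these 3 windows; both repeats contain the half-site. In the windows not shown, AGGTCA occurs in Elovl6 (-193 from the RefSeq start) and in a window of Elovl1 (-95). CCAAT occurs in a window of Elovl1 (-35) and in Elovl5 (-71 and -17). The Scd4 and Fads2 windows lie almost wholly inside the genes as placed above, which start at 44333092 and, on the minus strand, at 10101746. Their lack of these letters does not describe the sequence before those starts. These letters say nothing of sites elsewhere or of the factors.

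Fads1 (ENSMUSG00000010663), the desaturase that acts late in arachidonic acid synthesis, was the third gene to pass the test. Its values were 52.7, 46.1 and 48.3 in WT replicates 1, 2 and 28, and 27.96, 34.3, 27.98 and 41.7 in edKO replicates 5, 6, 15 and 33. The groups did not overlap, with edKO replicate 33 within 1.11-fold of the lowest WT heart. Fads1 fell 1.49-fold, from 49.1 ± 3.38 to 32.97 ± 6.52 (log2 difference -0.58, SE 0.14, 95% interval -0.88 to -0.27; adjusted p = 0.0436 by limma and p = 0.0571 by exact permutation). The call was lost on leaving out any library other than edKO replicate 33 (limma adjusted p 0.058 to 0.166) and was 0.0544 with edgeR on recovered reads, so it stands at the threshold.

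Fads2 (ENSMUSG00000024665), the desaturase that makes γ-linolenic acid, had lower values in edKO that did not pass the test. It stood at 11.4, 8.98 and 12.9 in WT replicates 1, 2 and 28, and at 3.79, 7.14, 5.66 and 8.25 in edKO replicates 5, 6, 15 and 33. Every edKO heart was below every WT heart, the nearest pair by 1.09-fold. The means were 11.1 ± 1.99 and 6.21 ± 1.93, a ratio of 1.79, with a log2 difference of -0.78 (SE 0.22, 95% interval -1.27 to -0.28; adjusted p = 0.0808 by limma and p = 0.0571 by exact permutation). Without edKO replicate 33 the limma adjusted p was 0.0259, and DESeq2 on recovered reads gave 0.0296. The gene rested on 43 to 202 reads per library.

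Fads3 (ENSMUSG00000024664), the least characterised of the 3 and known to act on sphingoid bases, had values on the other side. They were 64.1, 58.9 and 56.0 in WT replicates 1, 2 and 28, and 82.8, 60.3, 76.6 and 82.0 in edKO replicates 5, 6, 15 and 33. All edKO hearts other than replicate 6 were above the WT hearts. The means were 59.7 ± 4.07 and 75.4 ± 10.5, with a log2 difference of 0.32 (95% interval 0.06 to 0.58; adjusted p = 0.160 by limma and p = 0.0857 by exact permutation), and without edKO replicate 6 the limma adjusted p was 0.0365. The ratio of Fads1 and Fads2 together to Fads3 was 1.00, 0.935 and 1.09 in WT replicates 1, 2 and 28. In edKO replicates 5, 6, 15 and 33 it was 0.383, 0.687, 0.439 and 0.609, without overlap. This ratio sets genes with opposite signs of difference against each other. Its separation therefore repeats the single-gene differences, is no separate result and was not tested. Because of these opposite signs the Fads sum hardly differed, at 120 ± 7.48 in WT and 115 ± 12.7 in edKO. The neighbours of the Fads cluster in the table, Rab3il1, Fen1, Tmem258, Myrf and Dagla, had log2 differences from -0.55 to -0.12, and none passed.

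Of the elongases, 0 of 4 passed limma, edgeR, DESeq2 or voom, or stood under an unadjusted limma p of 0.05. Elovl5 (ENSMUSG00000032349, chromosome 9, 77917364 to 77984519, plus strand) lengthens polyunsaturated fatty acids such as γ-linolenic acid. It stood at 63.4, 57.0 and 62.4 in WT replicates 1, 2 and 28, and at 66.7, 67.2, 63.1 and 72.1 in edKO replicates 5, 6, 15 and 33. The groups overlapped, and the log2 difference of 0.14 had a 95% interval from -0.05 to 0.33, which excludes a fall as large as that of Fads1 (limma adjusted p = 0.420). Elovl1 (ENSMUSG00000006390, chromosome 4, 118428093 to 118432953, plus strand) makes very long saturated and monounsaturated chains. It ranged from 30.3 to 33.5 in WT and from 32.4 to 38.3 in edKO, with a log2 difference of 0.13 (-0.09 to 0.35; limma adjusted p = 0.511). The end of Elovl1 overlaps Cdc20 on the opposite strand, at 26.3 ± 2.04 in WT and 38.9 ± 11.3 in edKO, and the strand setting of the read counting is not given in the sources used here.

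Elovl6 (ENSMUSG00000041220, chromosome 3, 129532355 to 129638495, plus strand) lengthens palmitate to stearate and so makes a substrate of the Scd enzymes. It ranged from 5.78 to 6.74 in WT and from 4.75 to 7.15 in edKO. Its log2 difference was -0.07 (95% interval -0.43 to 0.29; limma adjusted p = 0.847) and turned to 0.01 without edKO replicate 5. Elovl7 (ENSMUSG00000021696, chromosome 13, 108214404 to 108285683, plus strand), another elongase of saturated chains, was the lowest of the set per kilobase and in normalised reads, at 2.20 ± 0.307 in WT and 1.59 ± 0.489 in edKO on 13 to 34 reads per library. The difference of -0.32 had a 95% interval from -0.79 to 0.14 (limma adjusted p = 0.443), and the depth behind it is the smallest of the 10 genes. Elovl2, Elovl3 and Elovl4 are not listed in the table and were not analysed here.

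Monounsaturated and polyunsaturated synthesis were set side by side as sums. The ratio of summed Scd to summed Fads and Elovl values was 1.59, 1.73 and 1.90 in WT replicates 1, 2 and 28, and 0.719, 0.657, 0.656 and 0.811 in edKO replicates 5, 6, 15 and 33. The means were 1.74 ± 0.157 and 0.711 ± 0.0731, a 2.45-fold lower ratio in edKO without overlap, and 2.69-fold lower when values were divided by exonic length. Elovl1, Elovl6 and Elovl7 are known mainly for saturated and monounsaturated chains, so the ratio was also taken to Fads1, Fads2 and Elovl5 alone. That ratio was 3.18 ± 0.237 in WT and 1.51 ± 0.173 in edKO, again without overlap, while the sum of these 3 genes overlapped between groups, at 121 ± 8.03 and 106 ± 11.6.

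**Figure D3:**
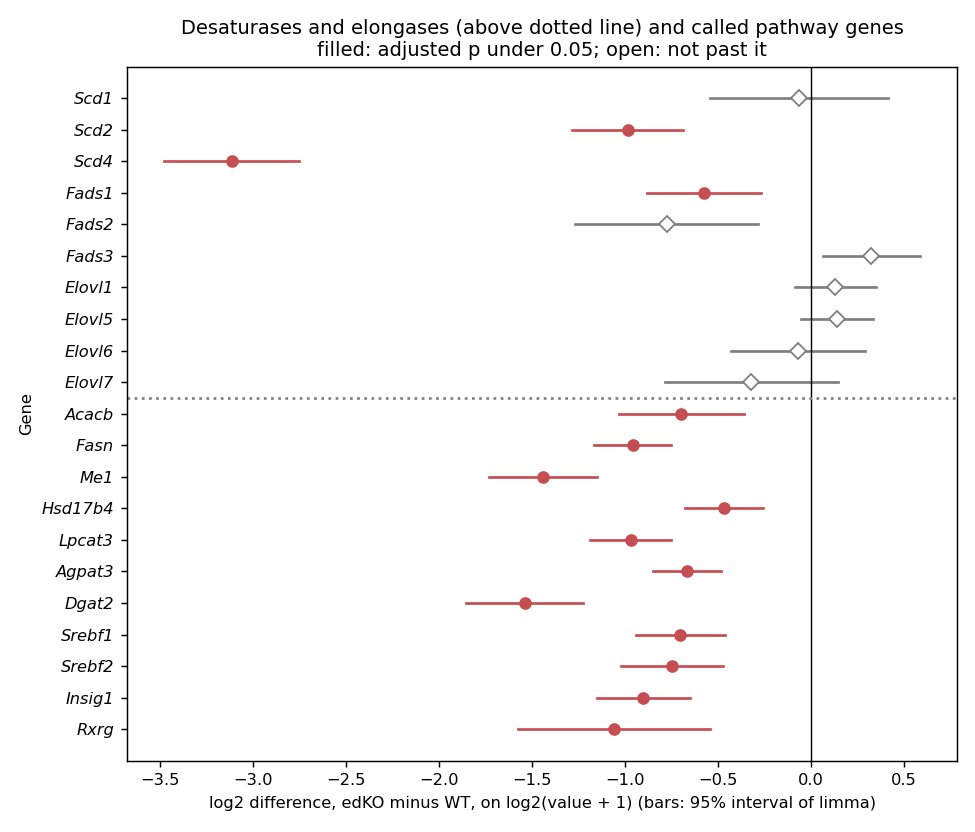
Log2 difference of edKO minus WT on the log2(value + 1) scale with its 95% interval from limma, for the 10 desaturases and elongases (above the dotted line) and the called genes of the wider pathway (below it); filled red circles passed an adjusted p of 0.05, open diamonds did not. Scd4 stands at -3.12, apart from the other members, whose differences lie between -0.99 and 0.32.

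Levels of different genes were compared per kilobase of exonic length. In WT the order was Scd2 (51.5 ± 3.90 normalised reads per 1000000 per kilobase), Scd4 (25.3 ± 4.57), Elovl5 (17.3 ± 0.970), Fads3 (15.7 ± 1.07), Elovl1 (11.8 ± 0.638), Fads1 (10.2 ± 0.702), Fads2 (3.37 ± 0.604), Scd1 (1.54 ± 0.239), Elovl6 (0.968 ± 0.0753) and Elovl7 (0.549 ± 0.0765). Of these neighbours, only Elovl5 and Fads3 overlapped between WT hearts. In edKO Scd2 was still first, at 26.2 ± 5.32, and Scd4 moved from rank 2 to rank 6, at 2.68 ± 0.522. There the hearts overlapped for Fads3 and Elovl5, for Scd4 and Fads2, and for Fads2 and Scd1.

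The edKO hearts differed among themselves, though not in the same order for all members. The highest edKO value was in replicate 6 for Scd4, in replicate 5 for Fads3 and in replicate 15 for Elovl7. In edKO replicate 33, the most deeply read library, 7 of the 10 members had their highest edKO value, beside 31.4% of all genes, and Scd4 and Elovl7 had their lowest. Scd2 stood 0.61 below the WT mean there on the log2 scale, against 0.98, 1.21 and 1.18 below it in edKO replicates 5, 6 and 15. The sum of 5 fibroblast markers ranged from 2382 to 3075 in WT, and was 1443, 2180, 1572 and 2918 in edKO replicates 5, 6, 15 and 33. The sum of 3 epicardial markers ranged from 119 to 136 in WT and was 108, 106, 73.8 and 166 in the same edKO order, and that of 3 smooth muscle markers ranged from 712 to 1438 in WT and was 802, 632, 727 and 1205. All of these sums are highest in edKO replicate 33, and their part in the Scd1, Scd2, Fads1 and Fads2 values was not tested. The fibroblast sum mostly follows Col1a1 and Col1a2 (WT means 1137 and 1104), and the smooth muscle sum Acta2 (971). Single markers can differ from their sum. Across edKO hearts Pdgfra ranged from 44.7 to 55.5, against 565 to 1222 for Col1a1, and Myh11 was highest in edKO replicate 6. Without edKO replicate 33 the log2 differences of Scd2, Scd4, Fads1 and Fads2 were -1.12, -3.01, -0.69 and -0.91, all called by limma (adjusted p between 7.80e-07 and 0.0259). In that fit the calls over all genes rose from 580 to 1177. Limma also called 2 of the 5 fibroblast markers lower there (Col1a1, adjusted p = 0.0210, and Col1a2, 0.0449). The same held for 2 of the 3 epicardial markers (Upk3b, 0.0250, and Msln, 0.0262). Other markers went the other way without a call. Over all hearts, epicardial Wt1 stood at 13.3 ± 1.28 in WT and 20.2 ± 5.66 in edKO. Fibroblast Tcf21 stood at 39.8 ± 1.68 and 43.6 ± 3.08, and both were highest in edKO replicate 5.

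**Figure D4:**
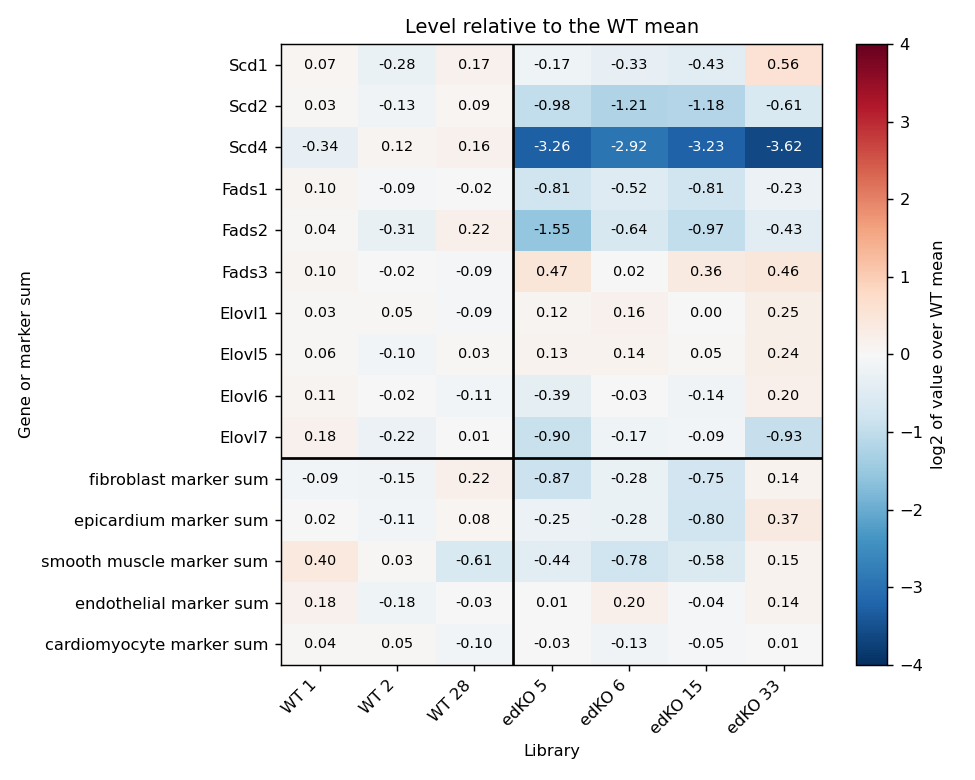
Log2 of each library's value over the WT mean for the 10 genes and, below the line, for summed marker genes of 5 cardiac cell types; blue is lower and red higher. Scd4 lies between -3.62 and -2.92 in the 4 edKO hearts, and edKO replicate 33 is the highest edKO heart for Scd2 (-0.61), Fads1 (-0.23), Fads2 (-0.43) and the fibroblast sum (0.14).

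The genes with the most similar profile over the 7 libraries were listed for each Scd gene by Pearson correlation of log2(value + 1), a measure that includes the group difference and is given without a test. For Scd4 they were Cpt1a, Acadvl and Cpt2 (r from 0.997 to 0.998), all of them genes of mitochondrial fatty acid oxidation, with log2 differences of -0.88, -1.72 and -1.62. For Scd2 they were Synpo2, Opn4 and Fam114a1 (r from 0.984 to 0.995), and for Scd1 Igfbp6, Upk1b and Lpp (r from 0.980 to 0.983).

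Around the desaturases and elongases, a list of 48 genes of the pathway was read in the same fit. It held 44 measured genes, with 11 called lower, 0 called higher and 33 not called, beside the 4.21% of all genes called; its median log2 difference was -0.08. The enzymes that complete each elongation round and the electron carriers of the desaturases held no call. In the elongation cycle 0 of 6 passed: Tecr, the enoyl reductase, stood at 111 ± 6.66 and 94.6 ± 6.34 (WT and edKO), and Hacd1, a dehydratase, at 116 ± 18.1 and 112 ± 15.7. Of the 61-nt windows of Hacd1, 23.7% occur in other genes. Among 4 carriers, cytochrome b5 of the mitochondrial outer membrane (Cyb5b) had 82.0 ± 10.3 and 59.6 ± 11.1 (limma adjusted p = 0.0866) and its reductase Cyb5r3 151 ± 5.64 and 146 ± 11.1. Cyb5a, the cytochrome b5 of the endoplasmic reticulum, named after its values were seen, lay on the other side without overlap, at 40.1 ± 5.85 and 52.1 ± 1.46 (limma adjusted p = 0.0715; 0.0359 without WT replicate 1). By an unadjusted limma p under 0.05, 22 of the 44 genes stood out, 5 of them on the higher side, beside the 2649 of 13788 given above.

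In the supply of saturated precursors 3 of 6 genes were lower and none higher. Me1, the malic enzyme that provides NADPH for lipid synthesis, fell 2.75-fold, from 70.2 ± 4.51 to 25.5 ± 4.78 (limma adjusted p = 0.00014), and Fasn, the fatty acid synthase, 1.96-fold. Acacb, the acetyl-CoA carboxylase that guards mitochondrial fatty acid entry, fell 1.63-fold, from 194 ± 34.2 to 119 ± 20.4 (limma adjusted p = 0.0286), a call that was lost on leaving out edKO replicate 5, WT replicate 2 or WT replicate 28 (0.0622 to 0.147). Acly, which makes cytosolic acetyl-CoA, stood at 81.8 ± 6.45 and 76.2 ± 7.58 and Acss2, which activates acetate, at 28.4 ± 0.802 and 33.3 ± 4.68. Of the windows of Me1, 24.2% occur in other genes.

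Among 7 enzymes that place fatty acids into phospholipids or esters 3 were lower and none higher. Agpat3, an acyltransferase that favours polyunsaturated chains, fell 1.59-fold, from 214 ± 15.3 to 134 ± 6.10 (limma adjusted p = 0.0013). Lpcat3, which places polyunsaturated chains into phospholipids, fell 1.99-fold, and Dgat2, which makes triglyceride, 2.93-fold. Dgat1, the other triglyceride enzyme, stood at 23.2 ± 2.20 and 23.8 ± 2.87, and Mboat2 at 23.0 ± 3.23 and 20.2 ± 2.55. Of 4 peroxisomal enzymes that finish the longest polyunsaturated chains, Hsd17b4 was lower, at 120 ± 1.26 and 87.0 ± 8.76 (limma adjusted p = 0.0200, lost without any single WT library), while Scp2 stood at 150 ± 12.1 and 131 ± 7.69. Of the 3 other desaturases, Degs1, the ceramide desaturase, stood at 120 ± 1.49 and 117 ± 5.11 and Fads6 at 2.48 ± 0.119 and 3.17 ± 0.965, and none passed.

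Of 14 regulators, 4 were called lower and none higher, and the median log2 difference over the 14 was 0.11. Srebf2, the SREBP gene of sterol synthesis, fell 1.68-fold, from 77.8 ± 6.93 to 46.2 ± 7.27 (limma adjusted p = 0.00729; 0.0534 without WT replicate 2). Srebf1, the SREBP gene of fatty acid synthesis, and Insig1, which holds SREBP back in the endoplasmic reticulum, fell 1.65-fold and 1.92-fold. Rxrg, the third retinoid X receptor, stood at 2.81, 3.40 and 2.36 in WT replicates 1, 2 and 28 and at 0.741, 0.934, 0.389 and 1.45 in edKO replicates 5, 6, 15 and 33. Every listed gene had at least 1 read per 1000000 in 3 or more libraries, which may reflect a filter. Rxrg reached this level in its WT hearts and, in edKO, in replicate 33 alone. It would fall short without the WT hearts. Its call (limma adjusted p = 0.0291) and its place in the counts may therefore carry such a selection. The call was lost on leaving out any of the WT hearts or either of edKO replicates 15 and 5 (0.0685 to 0.147). The LXR gene Nr1h2, with the highest mean of the uncalled regulators after Rxra, stood at 41.7 ± 3.72 and 50.1 ± 4.37. The PPAR genes Pparg and Ppara, named after their values were seen, also had higher means in edKO, with overlapping groups. Pparg stood at 5.76 ± 1.65 and 10.6 ± 3.07 (limma adjusted p = 0.0923, and 0.0221 without edKO replicate 33). Ppara stood at 4.57 ± 1.38 and 7.96 ± 2.12 (0.137, and 0.0352 without edKO replicate 33).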

How the data were processed

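Per the labels' protocols, total RNA (RNeasy) of biological replicates was turned into amplified cDNA (Ovation RNA-seq System v2) and read as single 61-nt reads. Cutadapt, RSEM 1.3.1, limma and GRCm38 are listed in the submitters' processing notes, without order or annotation. The deposited signal values equal reads plus 0.5 per 1000000 of an effective library size: 100% of 96516 values gave whole reads (relative tolerance 1e-06). Every listed gene had at least 1 read per 1000000 in 3 or more libraries.

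The main test was limma 3.58.1 (R 4.3.3, trend on, 2-sided) on log2(value + 1), adjusted by Benjamini-Hochberg over 13788 genes; log2 differences on this scale understate low genes, and folds are ratios of means. Exact permutation tests used the absolute difference of means. edgeR had been planned only for raw counts. Fits were tested on simulated data. No library was a duplicate (chi-square per degree of freedom 9.06 or more). GENCODE M21 held 13716 of 13788 identifiers (99.5%). Members and lists were chosen with earlier results of these data known. Named genes were all members, called pathway genes, up to 2 uncalled genes of each sub-list with the highest mean, and 3 similar genes per Scd gene (predicted genes left out), of which 1 is not reported here; Rxrb, Cdc20 and the Fads neighbours were added after values were seen. Alternatives were pseudocounts, a filter, variance models, library weights, scalings, Xist as covariate, edgeR 4.0.16, DESeq2 1.42.0 and voom on recovered reads, and leaving out each library. Without molecular identifiers, reads are not independent, and floors cover counting error alone.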

Additional observations from a re-analysis of the deposited data

Results flagged for a closer look

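Among the values of the 4 edKO hearts, 3 pathway genes had a heart far from the others, in each case edKO replicate 33; 47 genes were examined in this way, and such a rule picks out about 1 in 20 by chance. Dgat2 stood at 22.1 there against 33.1 to 34.2 in the other edKO hearts (gap over range 0.915), Hacd1 at 135 against 102 to 107 (0.851), and Cyb5b at 76.1 against 52.0 to 55.2 (0.867). None of the 10 desaturases and elongases was picked out.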

How the results depend on the processing

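No paired analysis was possible because WT and edKO share no replicate number. Scd4 and Scd2 were called lower under all 19 alternatives, with log2 differences from -3.27 to -2.73 and from -1.12 to -0.92. The 580 calls over all genes became 370 without the mean-variance trend, 1284 with library weights, 1052 with DESeq2 and 364 with Xist as covariate, and 222 to 1177 on leaving out 1 library (222 to 252 when a WT heart was omitted; omitting an edKO heart gave 364 for replicate 5, 624 for 6, 345 for 15 and 1177 for 33). The count of members called ran from 2 to 4 and that of pathway genes from 7, without WT replicate 2, to 16. Divided by exonic length, the Scd to Fads and Elovl ratio was 1.31 in WT and 0.488 in edKO, and the share of Scd2 was 65.8% and 86.0% and that of Scd4 32.2% and 9.19%. Leaving out 1 library, the WT ratio ran from 1.66 to 1.82 and the edKO ratio from 0.677 to 0.729, the Scd1 share from 1.87 to 2.09% and from 4.15 to 4.65%, the Scd2 share from 71.1 to 74.9% and from 88.3 to 89.7%, and the Scd4 share from 23.1 to 27.0% and from 5.77 to 7.49%. Among the members and the pathway genes named by rule, the uncalled differences that changed sign on leaving out 1 library were those of Scd1 (range -0.26 to 0.033; 0.014, 0.0043 and 0.033 without WT replicate 28, edKO replicate 6 and edKO replicate 15), Elovl6 (-0.15 to 0.013, the latter without edKO replicate 5), Hacd1 (-0.15 to 0.067, the latter without WT replicate 1) and Dgat1 (-0.044 to 0.092; -0.044 without edKO replicate 5 and -0.039 without WT replicate 28). Fads1 lost its call without the trend, with quantile normalisation, edgeR, voom or Xist (adjusted p 0.0511 to 0.0937), Rxrg with edgeR, voom or Xist (0.0502 to 0.0622), Acacb without the trend or with Xist (0.0794 and 0.0686) and Hsd17b4 without the trend (0.0665); the cause was not tested. Elovl7 rested on the fewest reads of the members, 13 to 34 per library.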
